A study of Mus musculus with 32 samples.

Results

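The 22 mice described here are those with the highest and the lowest level of Mbp, the transcript of myelin basic protein, among 32 mice whose frontal cortex was profiled after inoculation with gut microbiota. Mbp was expressed as counts per 1000000 (CPM), that is, its count divided by the total count of the library and scaled to a total of 1000000. Within the mice given the microbiota of 1 donor species, mice were ranked by Mbp CPM, so the members were chosen by the measured level of Mbp alone. The top 4 and the bottom 4 were taken in the human and the macaque donor groups, and the top 3 and the bottom 3 in the squirrel monkey donor group. This gave 11 high-Mbp and 11 low-Mbp mice, and left 10 mice of middle rank in neither set. The 2 sets were cut from a measured value and are not groups of the study, so the difference in Mbp itself is a description and carries no test.

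The tissue was frontal cortex, which the series' design describes as its infralimbic and prelimbic parts. The 3 labelled treatments were Human (12 mice, batches A and B), Squirrel.Monkey (8 mice, batches C and D) and Macaque (12 mice, batches E and F), each mouse having received the microbiota of that donor species. The sources used here do not state the strain, genotype, age or sex of the mice, or their microbial state before inoculation. The samples analysed here include no uninoculated mice. The labels join mice by batch and, in the library name, by plate column, and name no donor or cage, so p-values measure the spread between single mice and treat each as independent. RNA was sequenced as TagSeq, which reads near the 3′ end of polyadenylated transcripts. Totals were 1035036 to 2089308 counts per mouse, with a median of 1534710. The summed level of 20 excitatory neuron genes, a check on the tissue, was 10194 to 13632 CPM in the high and 11953 to 13351 CPM in the low mice.

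Myelin is the layered membrane that oligodendrocytes wrap around axons. In rodent cortex it is sparse in the upper layers, denser in the deep layers and densest in the white matter under the cortex. Its bulk is made of a small set of proteins and of galactolipids with very long, often hydroxylated, acyl chains, and the oligodendrocyte genes that make them are switched on together by a few transcription factors late in differentiation. In bulk tissue, more oligodendrocytes, more white matter in the dissected piece and more RNA per oligodendrocyte cannot be told apart.

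The promoters of 3 genes are shown whose level followed Mbp closely, because members of the myelin list moved together across mice. The 3 were chosen after the motif search described below, with their motif content known, and are not a sample of the list. They are the 250 bases before the annotated start from RefSeq on GRCm38.p6, a different build from that of the counts. They are Cldn11 (chr3:31149670-31149919), Mobp (chr9:120149492-120149741) and Cnp (chr11:100574689-100574938), all on the + strand and written 5′ to 3′. Capitals mark matches, on either strand, to ACAAAG, the core recognised by SOX proteins, or to CTGGCAC, a sequence like the one bound by the myelin regulatory factor.
Cldn11: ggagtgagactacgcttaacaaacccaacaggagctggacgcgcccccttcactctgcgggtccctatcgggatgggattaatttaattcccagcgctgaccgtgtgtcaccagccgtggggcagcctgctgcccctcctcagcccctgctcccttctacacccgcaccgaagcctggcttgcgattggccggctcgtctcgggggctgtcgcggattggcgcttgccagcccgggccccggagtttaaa
Mobp: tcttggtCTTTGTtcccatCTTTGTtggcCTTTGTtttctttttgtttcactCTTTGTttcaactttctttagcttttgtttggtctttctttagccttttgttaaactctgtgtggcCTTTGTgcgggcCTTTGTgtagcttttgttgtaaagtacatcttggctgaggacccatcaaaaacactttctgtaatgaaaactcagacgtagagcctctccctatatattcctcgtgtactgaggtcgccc
Cnp: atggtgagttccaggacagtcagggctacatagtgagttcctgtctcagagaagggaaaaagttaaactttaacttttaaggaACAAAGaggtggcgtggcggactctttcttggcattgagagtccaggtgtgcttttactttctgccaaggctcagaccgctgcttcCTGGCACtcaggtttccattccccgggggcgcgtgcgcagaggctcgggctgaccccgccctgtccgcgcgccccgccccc
The Mobp promoter held 6 matches to ACAAAG, the Cnp promoter held 1 match to each motif, and the Cldn11 promoter held none. Of 20 genes in the myelin list, 17 were matched to the promoter table, as were 9846 of the 12651 genes tested. A gene counted where any of its listed promoters held the motif, so genes with more promoters had more chances to match. The 17 included Gjb1, which was not among the genes tested. ACAAAG or its reverse complement CTTTGT was present for 7 of the 17 genes (41.2%) and for 14.4% of all matched genes. AACAAT, another SOX core (reverse complement ATTGTT), was present for 17.6% of the myelin genes and 7.36% of all. CTGGCAC (reverse complement GTGCCAG) was present for 17.6% and 5.04%. The E-box CAGCTG, its own reverse complement, was present for 17.6% against 14.2%, and TATAAA (reverse complement TTTATA) for 5.88% against 8.68%. Motifs can share end letters, such as the AC that ends CTGGCAC and begins ACAAAG, and each was counted by itself. A match describes letters in this window and is not a shown binding site.

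Mbp varied widely within each donor group. In the human donor group the high mice had 808, 1818, 2098 and 3528 CPM, the middle mice 392, 438, 477 and 519 CPM, and the low mice 289, 291, 308 and 330 CPM. In the squirrel monkey donor group the values were 828, 1656 and 1872 CPM in the high mice, 492 and 765 CPM in the middle mice, and 331, 333 and 457 CPM in the low mice. In the macaque donor group they were 497, 570, 581 and 1164 CPM, then 302, 306, 341 and 404 CPM, then 235, 240, 241 and 245 CPM. The highest mouse exceeded the lowest 12.2-fold in the human, 5.65-fold in the squirrel monkey and 4.96-fold in the macaque donor group. The cut did not fall at a gap everywhere: in the squirrel monkey donor group the highest middle mouse lay at 765 CPM beside the lowest high mouse at 828 CPM, and in the macaque donor group 404 CPM lay beside 497 CPM.

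Several features of the libraries ran along with the Mbp rank, and their part in the results below was not tested beyond the fits named. All 4 low mice of the human donor group were from batch B, whereas the 4 high mice were 2 from A and 2 from B. All 3 low mice of the squirrel monkey donor group were from batch D, and the high mice were 2 from C and 1 from D. In the macaque donor group both sets held 1 mouse of batch E and 3 of batch F. There the high mice had the smaller libraries, 1035036 to 1471571 counts against 1544169 to 1673882 in the low mice, with no overlap. The smallest library was that of the macaque donor mouse with the highest Mbp (replicate 6).

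**Figure D1:**
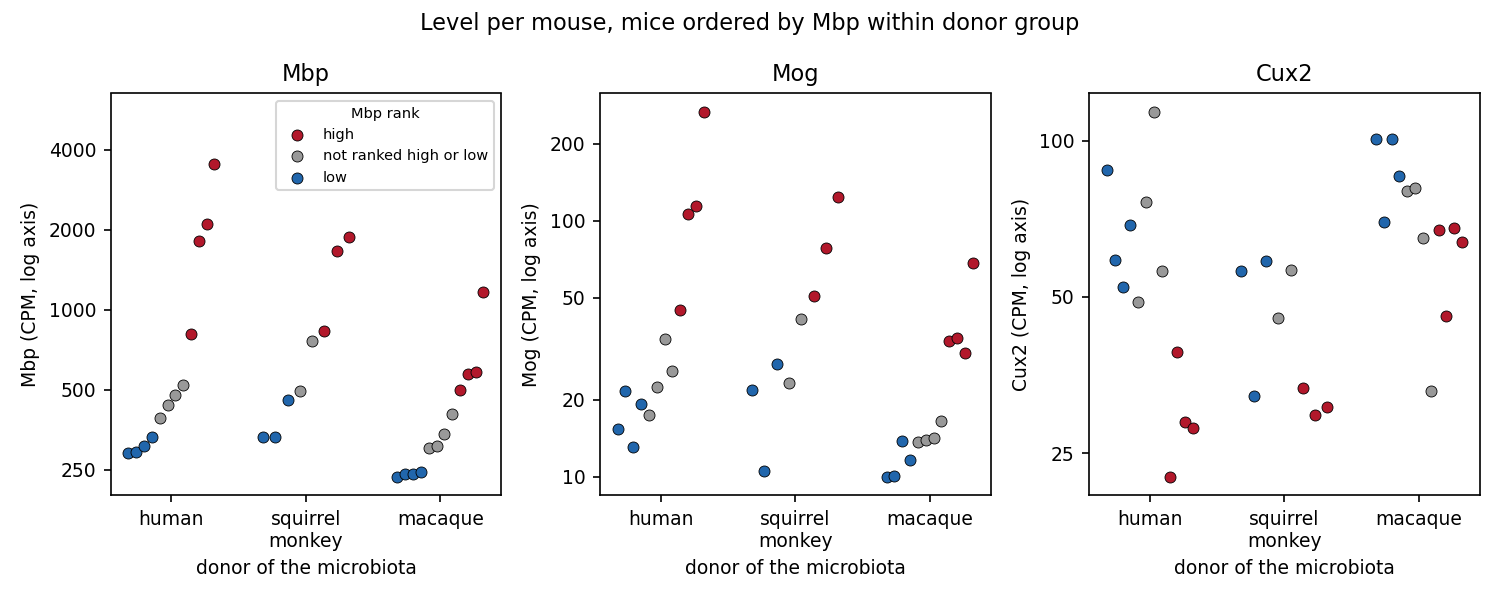
Level of Mbp, Mog and Cux2 in each of the 32 mice (CPM, log axis), ordered by Mbp within the donor group on the horizontal axis; red points are the high, grey the middle and blue the low mice. Mog climbs with Mbp in all 3 donor groups, whereas Cux2, a gene of the upper cortical layers, is at 22.5 to 68.0 CPM in the high mice and 32.2 to 101 CPM in the low mice.

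Across all genes, 12651 passed a filter on low counts and were compared between the 11 high and 11 low mice with edgeR's quasi-likelihood test, with donor group as covariate. A gene is called where its p, adjusted by Benjamini-Hochberg over all genes tested, is under 0.05. In all, 450 genes were called (3.56% of those tested), 293 higher (2.32%) and 157 lower (1.24%) in the high mice. Since the sets were cut on Mbp, the call is a threshold for genes that vary with Mbp. Differences are given as log2 of high over low with the standard error (SE). The median difference of called genes was 0.563 in absolute size, 78 genes were higher by at least 1 and 9 were lower by at least 1 on the log2 scale. Of the 293 higher genes, 56 belonged to a list of mature oligodendrocyte genes, Mbp included, and 83 to any list examined. Of the 157 lower genes none belonged to an oligodendrocyte list and 9 to any list. The median over all genes tested was -0.00.

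Genes of myelin structure were higher in the high mice almost throughout. Of 20 genes in that list 19 were tested. Without Mbp, whose difference the choice of mice fixed, 17 of 18 were called higher, with a median log2 difference of 1.92. Gjb1, a gap junction protein, fell below the filter, and Cd81, a membrane protein found in many cell types, was not called (0.18 ± 0.08 SE). The 2 mouse sets were fully apart within each of the 3 donor groups for 10 of these 18 genes, higher in the high mice. This held for 29 of all 12651 genes (0.229%), Mbp among them.

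Mog, whose protein lies on the outermost face of the myelin sheath, served as the other marker. In the human donor group Mog was at 45.0, 106, 114 and 266 CPM in the high mice and 13, 15.3, 19.2 and 21.6 CPM in the low mice. In the squirrel monkey donor group it was at 51.0, 78.3 and 123 CPM against 10.5, 21.9 and 27.7 CPM. In the macaque donor group it was at 30.5, 34.0, 34.9 and 68.6 CPM against 9.97, 10.1, 11.7 and 13.7 CPM. No low mouse reached any high mouse, within or across donor groups. The log2 difference was 2.41 ± 0.27 (SE, edgeR adjusted p = 1.02e-06).

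The largest difference was in Cldn11, the claudin that seals the layers of the sheath. It had a minimum, median and maximum of 48.0, 135 and 449 CPM in the high mice and 15, 24.5 and 52.0 CPM in the low mice, a log2 difference of 2.52 ± 0.27 (SE, edgeR adjusted p = 7.12e-07). The 2 ranges met only across donor groups, and within each donor group every high mouse was above every low mouse. Mobp, a small basic protein of compact myelin, had 168, 405 and 1355 CPM against 62.3, 72.3 and 157 CPM, a log2 difference of 2.50 ± 0.25 (SE, edgeR adjusted p = 2.52e-07), with no overlap. Mbp itself differed by 2.12 in the same fit, which the choice of mice set.

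Ermn, a cytoskeletal protein of the sheath, had a minimum, median and maximum of 12.7, 47.3 and 119 CPM in the high mice and 4.37, 9.56 and 13.4 CPM in the low mice, a log2 difference of 2.41 ± 0.28 (SE). Mag, which binds the inner sheath to the axon, had 24.6, 69.6 and 201 CPM against 8.10, 14.9 and 27.2 CPM (2.27 ± 0.26, SE). For both, the sets were apart within every donor group and met only across donor groups. Mal, a lipid-raft protein, was also apart within every donor group (2.09 ± 0.23, SE). Opalin, a membrane glycoprotein of the sheath (2.16), was apart with human and squirrel monkey donors and overlapped with macaque donors. Cnp, an enzyme of the non-compacted cytoplasmic channels, had 126, 252 and 826 CPM against 68.8, 96.5 and 101 CPM, with no overlap (1.77 ± 0.21, SE, edgeR adjusted p = 2.41e-06). Hapln2, a matrix link protein at nodes (1.56), Tmem88b (1.41), Tspan2 (1.35), Plekhb1 (1.33), Pllp (1.24) and Gjc3, a connexin of oligodendrocytes (1.08), were higher as well. Cd9, a tetraspanin of many cell types, was higher too (0.76) and lost its call without human donor replicate 9 or 10 or macaque donor replicate 6 (edgeR adjusted p 0.0530 to 0.0593). Ermn, Cnp, Pllp, Tspan2, Cd9 and Cd81 overlap an annotated gene on the other strand, so their counts are uncertain where counting ignored strand, which the sources used here do not state. The same holds for Cers2, Elovl1, Olig1, Sox8, S1pr5, Bcas1, Pdgfra, Cdkn1c, Cpxm2, Ccn2, Hs3st4, Tagln, Dlx1, Syndig1l, Ppp1r1b, Zic1, Penk, Mt2, Klhdc8b and Rps28 below.

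The size of these differences was little moved by batch and was smaller without the mice of highest Mbp. With batch in place of donor group as covariate, 16 of the 18 myelin genes other than Mbp were called at a median of 1.92, with Cldn11 at 2.54, Mobp at 2.56 and Mog at 2.62. Without the 5 mice of highest Mbp, 14 were called at a median of 1.18, and without the human donor mice 13 at a median of 1.40.

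Relatives of these proteins were mostly not called. Among glial connexins, Gjc3 was called, whereas the astrocyte connexins Gja1 and Gjb6 stood at 0.23 ± 0.13 and 0.22 ± 0.12 (SE) and Gjc1 at 0.26 ± 0.22, none past the threshold. Among 4 tested claudins Cldn11 alone was called. Differences between members of a family were not tested directly.

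**Figure D2:**
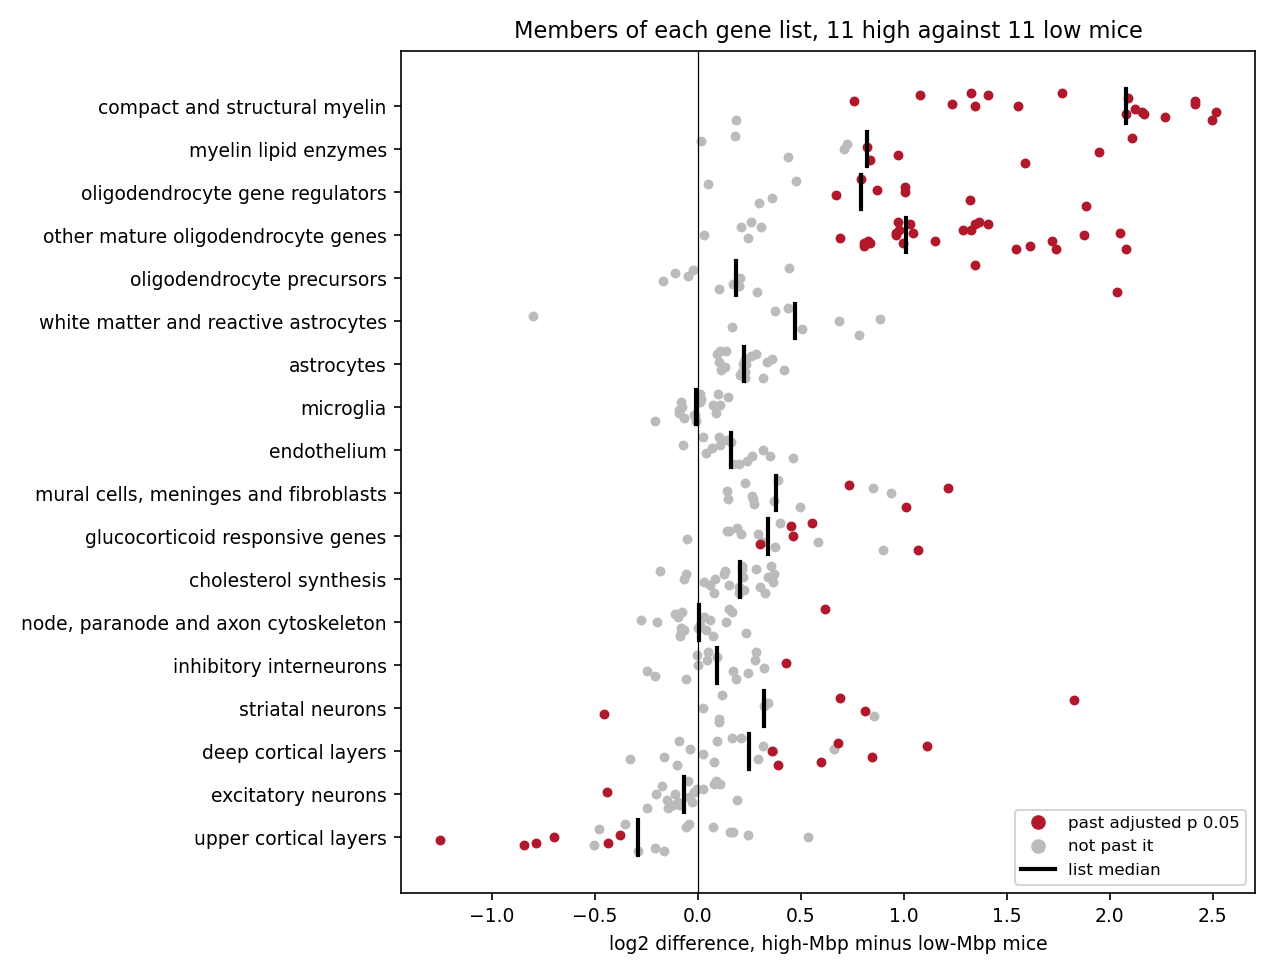
Log2 difference between the 11 high and the 11 low mice (horizontal axis) for each tested member of 18 gene lists; red points are past adjusted p 0.05, grey points are not, and black bars are list medians, with Mbp drawn in the structural myelin list. The 4 oligodendrocyte lists at the top have medians of 0.79 to 2.08, and the upper cortical layers have the lowest median of the lists drawn, -0.29.

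Enzymes of myelin lipids were higher in part. Of 12 genes, 11 were tested and 6 were called higher, with a median of 0.82. Fa2h, which hydroxylates the fatty acids of myelin galactolipids, had a minimum, median and maximum of 4.83, 12.2 and 38.3 CPM in the high mice and 1.49, 3.24 and 5.03 CPM in the low mice (2.11 ± 0.27, SE). Ugt8a, which adds the galactose (1.95), Aspa, which releases acetate from N-acetylaspartate (1.59), Cers2, the ceramide synthase of very long chains (0.97), Pla2g16, a phospholipase (0.84), and Elovl1, a fatty acid elongase (0.82), made up the rest of the called genes. Gal3st1, which adds the sulfate to make sulfatide, was at 0.71 ± 0.24 (SE) and was not called (edgeR adjusted p = 0.098). The enzymes of cholesterol synthesis, a pathway that supplies myelin but runs in all cells, had 24 tested members, none of them called, and a median of 0.20 with 21 positive. With no filter 4 of 25 were called higher.

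Transcription factors of the lineage were higher in part. Of 12 regulators, 11 were tested and 7 called higher, with a median of 0.79, and Nkx6-2 fell below the filter. Myrf, the factor that drives myelin genes in mature oligodendrocytes, had 7.47, 19.99 and 50.5 CPM (minimum, median, maximum) against 2.24, 5.38 and 9.56 CPM, and was apart in each donor group (1.88 ± 0.28, SE, edgeR adjusted p = 7.59e-05). Sox10, expressed throughout the lineage, differed by 1.32 ± 0.24 (SE), St18 by 1.0, Nfe2l3 by 1.0, Olig2 by 0.87, Olig1 by 0.79 and Zfp536 by 0.67. The call of Nfe2l3 was lost without any one of 11 mice (edgeR adjusted p 0.0502 to 0.095). Sox8 was at 0.47 ± 0.17 (SE) and not called (edgeR adjusted p = 0.129).

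A broader list of genes of mature oligodendrocytes had 36 members, of which 30 were tested and 25 called higher, with a median of 1.01. Among them were Evi2a, a membrane protein (2.08), S1pr5, a sphingosine-1-phosphate receptor (2.05), Trf, the iron carrier transferrin (1.87), Lpar1, a lysophosphatidic acid receptor (1.74), Ppp1r14a, an inhibitor of myosin phosphatase (1.72), Fgfr2, a fibroblast growth factor receptor (1.29), and Csrp1, a LIM-domain protein (0.96). Over the 4 mature lists together and without Mbp, 79 genes were listed, 70 were tested, 55 were called higher and all 70 had a positive difference, with a median of 1.04. Each high mouse was above each low mouse of its donor group, in all 3 donor groups, for 20 of the 70 genes. Over all 12650 genes tested other than Mbp this held for 28. Their summed level was 3435 to 13855 CPM in the high mice and 2213 to 3242 CPM in the low mice, with no overlap.

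Most genes of oligodendrocyte precursors were not called. Of 16 precursor genes, 12 were tested and 2 were called higher, with a list median of 0.18. The 2 were Bcas1 (2.04 ± 0.27, SE), with 68.0, 175 and 509 CPM against 19.1, 43.4 and 60.4 CPM and no overlap, and Enpp6 (1.34 ± 0.26, SE), both of which are known from newly formed oligodendrocytes. Pdgfra, the receptor that defines proliferating precursors, was at 18.3, 23.1 and 25.7 CPM in the high mice and 16.4, 21.2 and 29.6 CPM in the low mice. Its difference was 0.10 ± 0.11 (SE) and its ranges overlapped in every donor group.

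On the axonal side of the sheath 1 gene was called. Of 20 genes of nodes, paranodes and the axonal cytoskeleton, all tested, this was Cntn2 (0.62 ± 0.13, SE), an adhesion protein beside the paranode that oligodendrocytes also make. The list median was 0.01. Nfasc, the neurofascin of both axon and sheath, stood at 0.15 ± 0.08 (SE) and was not called.

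The direction of the myelin genes was the same in each donor group. In a fit with the high and low sets nested in donor group, the median over the structural myelin genes other than Mbp was 2.54 with human, 1.77 with squirrel monkey and 1.12 with macaque donors. All 18 genes were positive in each donor group. In the human donor group 232 genes were called higher (1.83% of those tested) and 124 lower (0.98%), 17 of these 18 myelin genes among the higher. In the squirrel monkey donor group 5 genes were called higher (0.0395%) and 0 lower, among them Mobp and Cnp of the myelin list, Mbp itself and Csrp1 of the broader list. In the macaque donor group 1 gene was called (0.0079%).

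The macaque call did not hold without each of 5 of its 8 mice, replicates 1, 6, 7, 8 and 9, where 0 genes were called. The 5 squirrel monkey calls became 0 without each of replicates 1, 5, 6 and 7, and 13 without replicate 2. The human count of 356 calls became 219 without replicate 9 and 221 without replicate 11. Whether the high minus low difference depended on donor group was tested as an interaction, which called 0 genes (smallest edgeR adjusted p = 0.158), with 879 genes (6.95%) at an unadjusted p under 0.05.

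**Figure D3:**
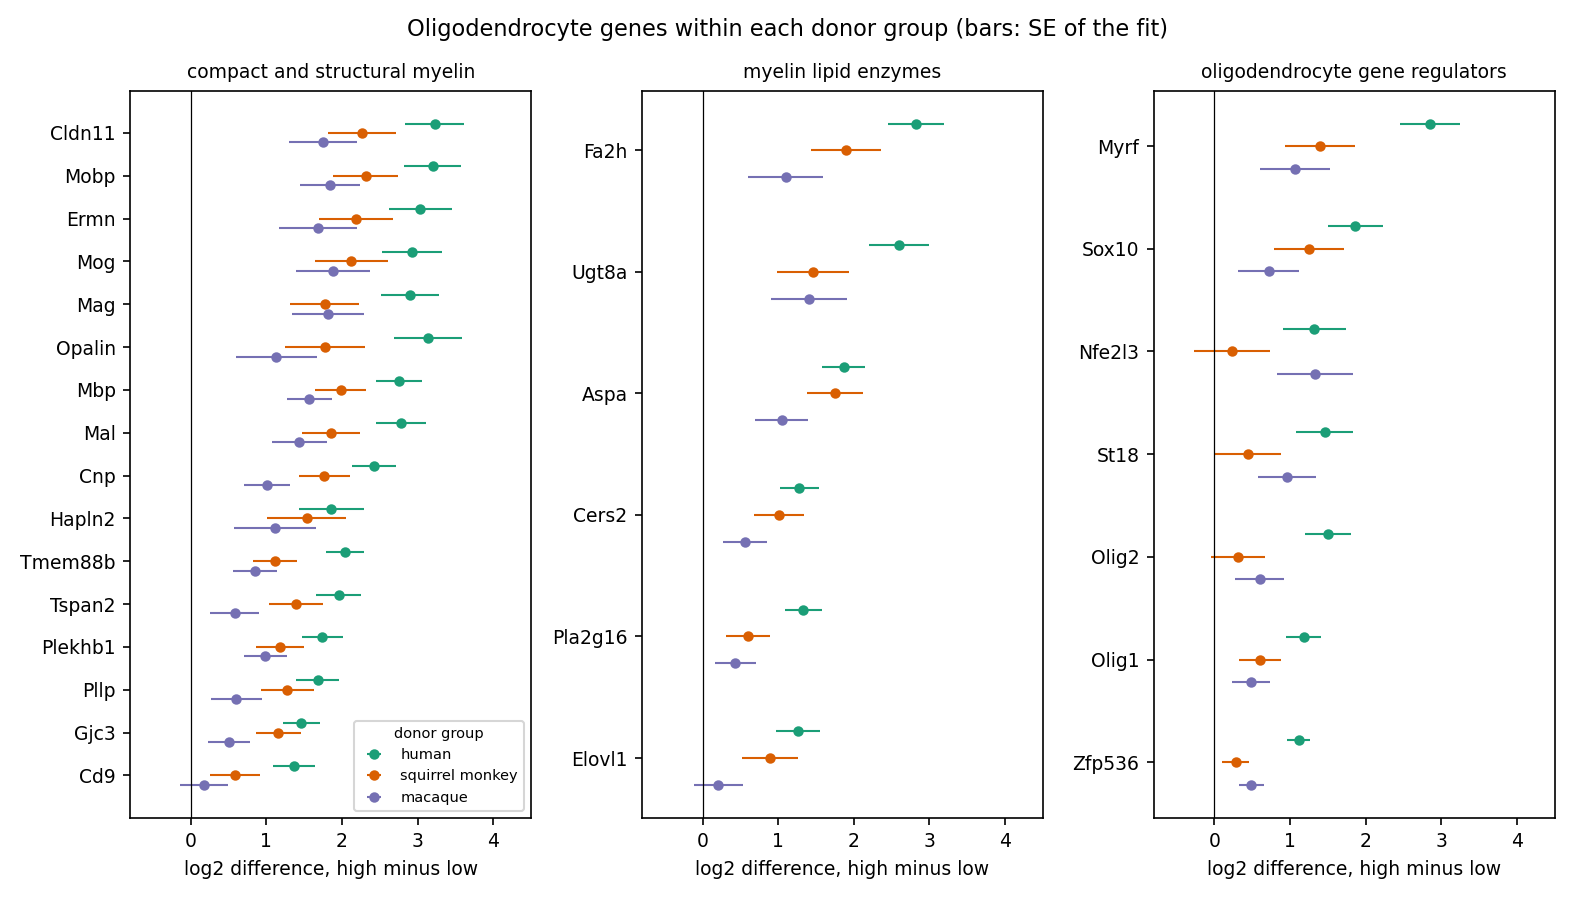
Log2 difference between high and low mice within the human (green), squirrel monkey (orange) and macaque (purple) donor groups, with SE as bars, for called genes of 3 oligodendrocyte lists. Points are right of 0 in every donor group, with Cldn11 at 3.22, 2.27 and 1.75, and the interaction test called 0 genes.

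The 10 mice of middle Mbp rank entered neither set, and their Mbp spanned a narrow range of 302 to 765 CPM. A slope on log2 Mbp with donor group as covariate called 0 genes in edgeR (smallest adjusted p = 0.656), with 344 genes (2.72%) at an unadjusted p under 0.05. Of the 292 genes called higher other than Mbp, 165 had a positive slope (56.5%), against 49.5% of all genes. Of the 157 called lower, 92 had a negative slope (58.6%). Of the 18 structural myelin genes other than Mbp, 17 had a positive slope, with a median of 0.65, and Hapln2 did not. Over the 4 mature oligodendrocyte lists without Mbp 53 of 70 slopes were positive.

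Per unit of log2 Mbp the slope was 1.22 ± 0.31 for Cldn11, 1.16 ± 0.27 for Mobp, 1.22 ± 0.44 for Mog and 0.75 ± 0.25 for Cnp (SE), and none passed adjustment. When donor group was left out of the fit, which lets differences between donor groups in, 8 genes passed, among them Cnp, Plekhb1, Mobp, Trf, Cldn11 and Mog, and Mbp itself, which was set against its own level. Precursor genes had 4 of 12 positive slopes, and genes of the upper and deep cortical layers 11 of 19 and 7 of 20.

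Over all 32 mice, with donor group means removed, the genes that correlated most with Mbp included Mobp (Pearson r = 0.990), Trf (0.980), Cldn11 (0.978) and Cnp (0.977). The lowest coefficients were those of Dpp10, a potassium channel subunit (-0.823), Cacng3, an auxiliary subunit of AMPA receptors (-0.761), Fcho1 (-0.744), Klhdc8b (-0.741) and Wwc1 (-0.726). These are descriptions over 32 mice, 22 of which the rule selected for extreme Mbp, and all values of a mouse share 1 library.

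**Figure D4:**
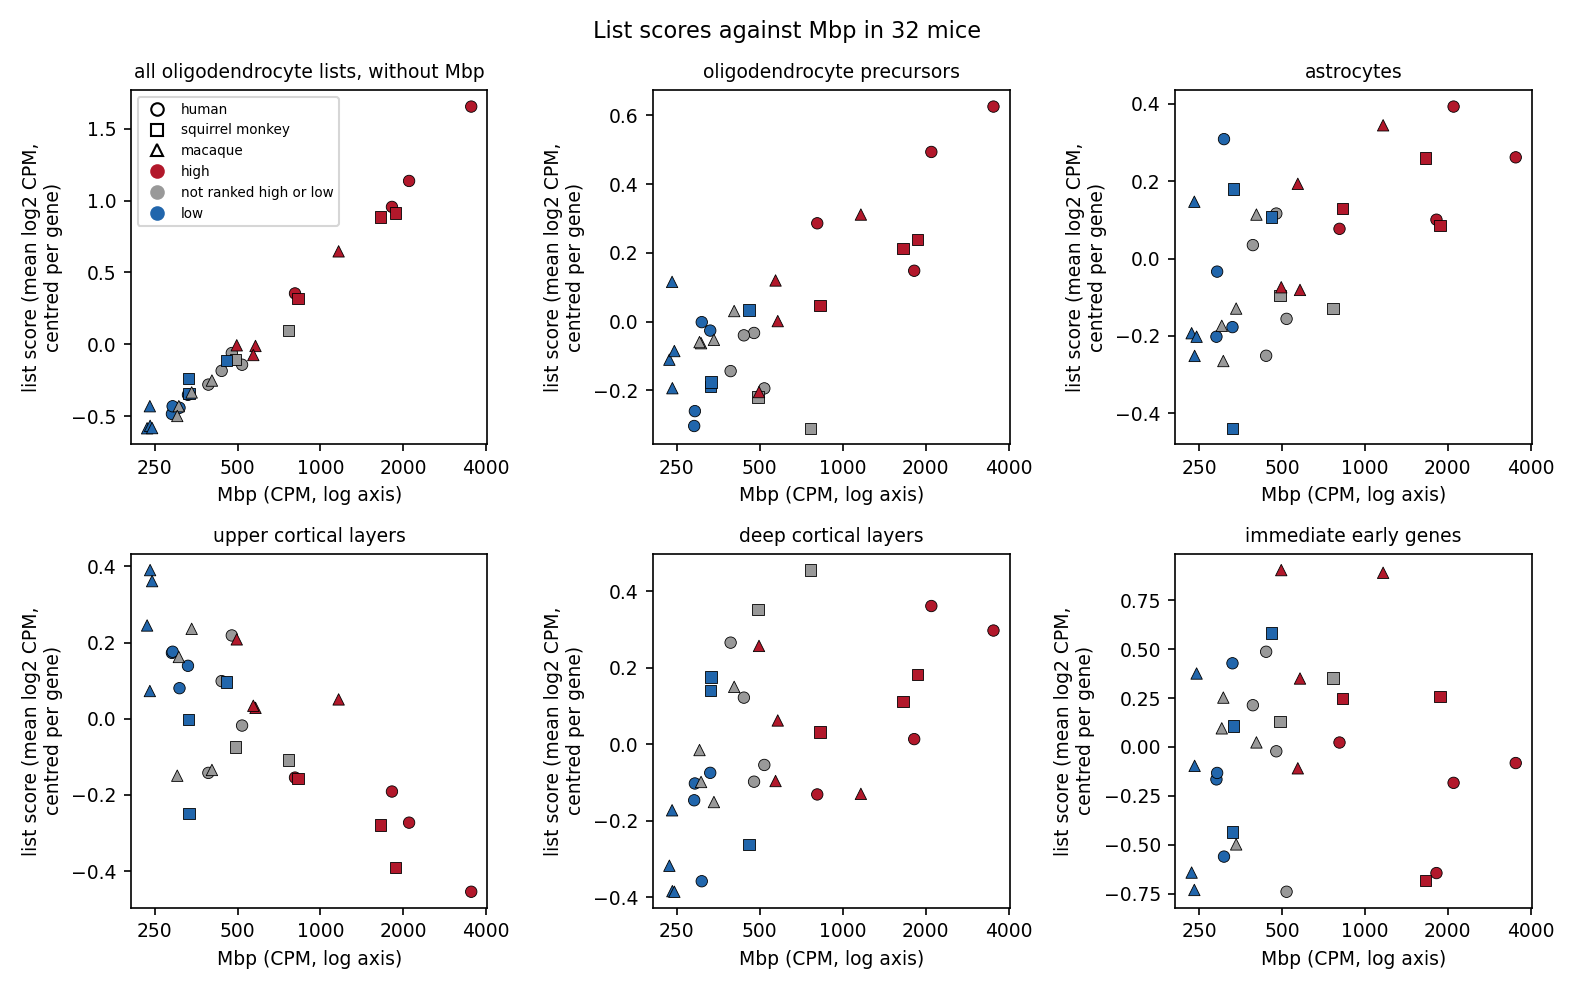
Score of 6 gene lists (average log2 CPM of the members, each gene centred on its own average, vertical axis) against Mbp (CPM, log axis) in 32 mice; shapes are donor groups and colours the high, middle and low mice. The oligodendrocyte score without Mbp runs from -0.585 to 1.66 along Mbp, whereas in each of the other panels, those of the cortical layers included, the scores of high and low mice overlap.

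Outside the oligodendrocyte lists, genes of the cortical layers differed in opposite directions. Of 19 upper-layer genes, all tested, 6 were called lower and 0 higher, with a median of -0.29. Of 22 deep-layer genes, 20 were tested, 6 were called higher and 0 lower, with a median of 0.25. Within these lists 14 of 19 upper-layer genes were negative and 15 of 20 deep-layer genes positive.

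Cux2, a homeobox gene of upper-layer neurons, was at 22.5, 33.4 and 68.0 CPM (minimum, median, maximum) in the high mice and 32.2, 68.9 and 101 CPM in the low mice, a log2 difference of -0.79 ± 0.12 (SE, edgeR adjusted p = 0.000186). The 2 sets were apart in the human and macaque donor groups and overlapped in the squirrel monkey donor group, where 1 low mouse (replicate 7) was at 32.2 CPM beside high mice at 29.6, 30.7 and 33.4 CPM. Lmo4, a LIM-domain regulator (-0.84), Otof, a calcium sensor of membrane fusion that marks superficial neurons (-1.25), Wfs1, an endoplasmic reticulum protein (-0.70), and Rasgrf2, a Ras exchange factor (-0.44), were lower too. The sixth, Rorb, a nuclear receptor of the input layer (-0.38), lay at the threshold (edgeR adjusted p = 0.0498) and was not called without any one of 17 mice (0.0565 to 0.101).

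Among the deep-layer genes, Ccn2, a secreted matrix protein of the deepest cortical sublayer, was at 14.3, 33.6 and 69.4 CPM in the high mice and 6.55, 12.3 and 36.2 CPM in the low mice (1.11 ± 0.21, SE, edgeR adjusted p = 0.00126). It was apart in the human and macaque donor groups and overlapped in the squirrel monkey donor group. Nr4a2, an orphan nuclear receptor of the same sublayer (0.68), Hs3st4, a heparan sulfate enzyme (0.60), and Bcl11b, which specifies subcerebral projection neurons (0.39), were higher as well. Cplx3, a complexin (0.84), was not called without human donor replicate 1, 7, 9, 10 or 11 (edgeR adjusted p 0.0529 to 0.0683). Tle4, a corepressor (0.36), was not called without any one of 8 mice (edgeR adjusted p 0.0522 to 0.0646).

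The layer calls changed with the mice and covariate used. Without the human donor mice 0 genes of either list were called, at medians of -0.28 and 0.24. With batch in place of donor group, 2 upper-layer genes were called lower and 4 deep-layer genes higher. Without the 5 mice of highest Mbp the counts were 1 and 2, and with ranks by Mog 3 and 2. With no filter, where 19 and 21 genes were tested, they rose to 11 and 10. Leaving out single mice gave 5 to 9 upper-layer genes lower and 4 to 7 deep-layer genes higher. Across all excitatory neuron genes, 1 of 20 was called, Nrgn, a postsynaptic calmodulin-binding protein, at 810 to 1699 CPM in the high mice and 1235 to 1962 CPM in the low mice (-0.44 ± 0.09, SE). The list median was -0.07.

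**Figure D5:**
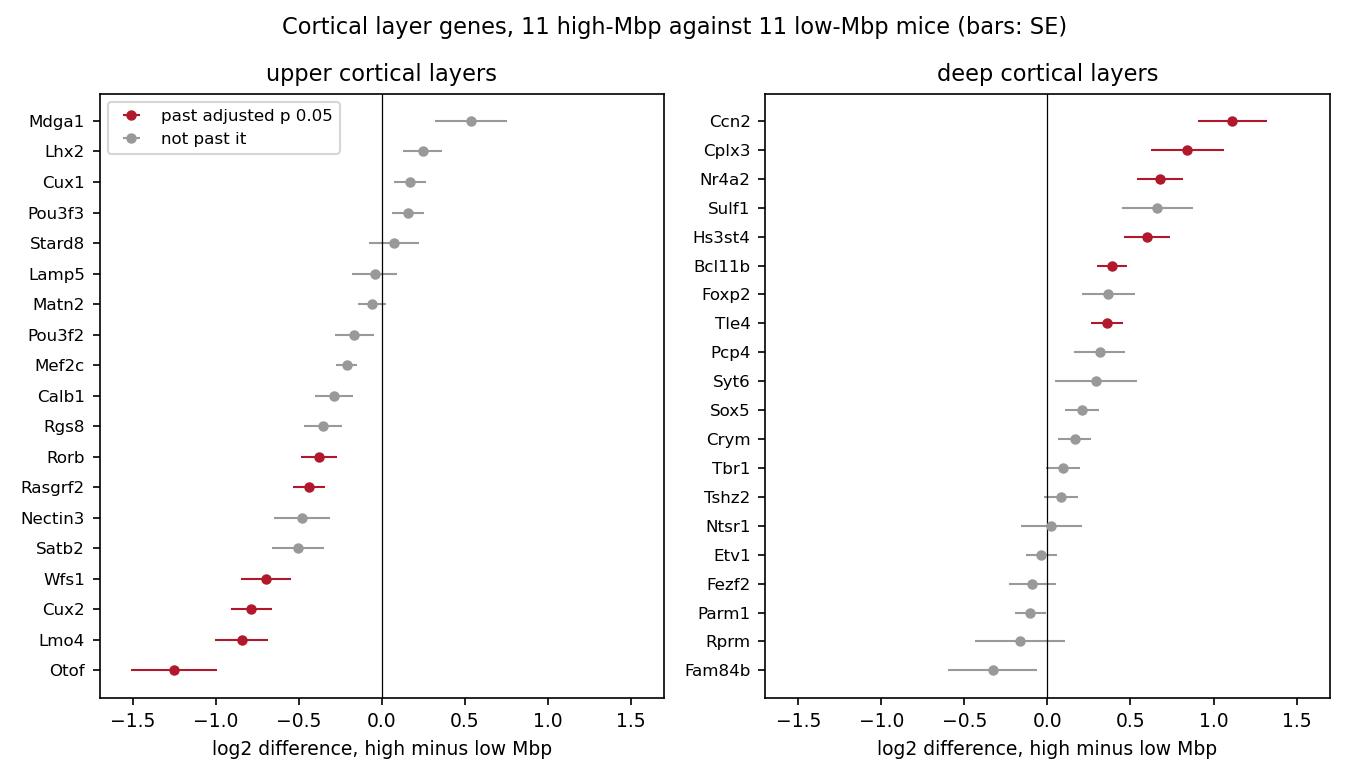
Log2 difference between the 11 high and the 11 low mice, with SE as bars, for each tested gene of the upper (left) and deep (right) cortical layers; red points are past adjusted p 0.05. All 6 called upper-layer genes lie left of 0 and all 6 called deep-layer genes right of 0.

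The 15 lower genes of largest difference with a mean of at least 5 CPM included several of low level. Clec18a, a C-type lectin, was at 0, 2.90 and 6.80 CPM (minimum, median, maximum) in the high mice and 0.658, 12.0 and 15.5 CPM in the low mice (-1.72 ± 0.30, SE). Smoc2, a secreted matrix protein, was at 3.91, 14.4 and 37.4 CPM against 13.8, 41.5 and 64.8 CPM (-1.40 ± 0.21, SE), and Synpr, a synaptic vesicle protein, at 28.8, 41.6 and 98.6 CPM against 34.2, 107 and 160 CPM (-0.97 ± 0.15, SE). Each overlapped between the sets through squirrel monkey donor mice and was apart with human and macaque donors. Evc2, a protein of the primary cilium, was the single gene lower in all 3 donor groups with no overlap inside any of them (0.0079% of genes tested), at 3.65, 6.92 and 15.7 CPM against 10.5, 15 and 20.3 CPM (-0.86 ± 0.16, SE).

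The other lower genes of that set were Vill, a villin-like protein (-1.49), Otof, given above, Adamts18, a matrix protease (-1.16), Etnk2, an ethanolamine kinase (-1.16), Hkdc1, a hexokinase-domain protein (-1.16), St8sia2, which adds polysialic acid (-1.14), Sema3d, a guidance cue (-0.97), Cdkn1c, a cell cycle inhibitor (-0.96), and Adcyap1, the neuropeptide PACAP (-0.96). Scn7a, a sodium channel (-1.31), lost its call without human donor replicate 10 (edgeR adjusted p = 0.0554). Cpxm2, a carboxypeptidase-like protein (-0.87), lost it without any one of human donor replicates 4, 7, 9 and 10 or squirrel monkey donor replicate 6 (edgeR adjusted p 0.0519 to 0.0728). With batch in place of donor group 6 of these 15 were called, without the human donor mice 2, and all 15 kept their sign. Of the 15 higher genes of largest difference, all were called with batch as covariate, and 14 without the human donor mice, S1pr5 being the exception.

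Markers of other cell types were followed as whole lists. No astrocyte gene of 20 was called by edgeR, all 20 were positive and the median was 0.22. With no filter 7 were called, with limma voom 3, for the slope over 32 mice 8, and on leaving out single mice 0 to 5. The summed level was 5672 to 7113 CPM in the high and 4532 to 6515 CPM in the low mice. Slc1a3, the glutamate transporter GLAST, came closest in that list at 0.23 ± 0.07 (SE, edgeR adjusted p = 0.0711). Of 12 genes of white matter and reactive astrocytes, 8 were tested and 0 called, with a median of 0.47, and Gfap, their filament protein, was at 36.6, 139 and 300 CPM against 18.8, 70.0 and 173 CPM (0.88 ± 0.30, SE, edgeR adjusted p = 0.115). In this list 7 of 12 genes were called higher with no filter, 2 of 8 with limma voom and 4 of 8 for the slope. In the other direction, 1 gene was called lower with no filter and 1 with the DESeq2 test. In the edgeR fit 7 of the 8 tested were positive, and the lowest difference was -0.80. Microglia had 17 tested genes, 0 called and a median of -0.01. Endothelium had 15 tested genes, 0 called and a median of 0.16.

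Genes of mural cells and meninges had 14 of 17 tested, 3 called higher and a median of 0.38, with a summed level of 671 to 1399 CPM in the high and 463 to 1132 CPM in the low mice. Ptgds, a prostaglandin synthase of meninges and oligodendrocytes, was at 349, 618 and 900 CPM against 216, 333 and 656 CPM (0.73 ± 0.16, SE), and Tagln, a smooth muscle protein, differed by 1.22 ± 0.27 (SE). Acta2, smooth muscle actin (1.01), was not called without any one of 14 mice (edgeR adjusted p 0.0547 to 0.112). No gene of that list was called without the 5 mice of highest Mbp. The part of these cells in the other results was not tested. Choroid plexus and ependymal genes had 5 of 12 tested and 0 called, peripheral nerve myelin 2 of 6 tested and 0 called, and red blood cells 4 of 7 tested and 0 called. With no filter 3 of 12 choroid plexus and ependymal genes were called higher, as were 533 of all 23049 genes. Their median was then 0.60, against 0.22 in the filtered fit. Neuroblasts and ventricular progenitors had 9 of 14 tested and 1 called higher, Dlx1 (0.43), a call lost without human donor replicate 4, 9 or 10 or squirrel monkey donor replicate 5 (edgeR adjusted p 0.0503 to 0.0557).

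Genes of striatal and septal neurons, from regions next to the frontal cortex, were higher in 1 high mouse, human donor replicate 7, than in the other 10. Its summed level of striatal genes was 1470 CPM, against 574 to 756 CPM in the other 10 high mice, and of septal and basal forebrain genes 266 CPM, against 56.4 to 176 CPM. Of 17 genes of striatal neurons 11 were tested, 3 were called higher and 1 lower, with a median of 0.32, and Drd2 and Adora2a, receptors that define one class of these neurons, fell below the filter. Syndig1l, a transmembrane protein abundant in striatum, was at 4.76, 20.2 and 44.0 CPM against 2.61, 5.46 and 16.4 CPM (1.83 ± 0.25, SE, edgeR adjusted p = 2.79e-05), and was called in each alternative run. Tac1 (0.81) and Ppp1r1b (0.69), which make a neuropeptide and a phosphatase inhibitor, lost their calls without any one of 9 and 14 mice (edgeR adjusted p 0.0505 to 0.0882 and 0.0571 to 0.112). Foxp1, which cortical neurons also express, was lower (-0.45 ± 0.11, SE). Drd1 stood at 0.34 ± 0.17 (SE) and Penk at 0.85 ± 0.29 (SE), neither called. The summed level of the striatal list had a median of 676 CPM in the high and 727 CPM in the low mice, which ranged from 584 to 800 CPM. Without replicate 7 the list had 1 gene called higher, Syndig1l, and a median of 0.12, with Tac1 at 0.47, Ppp1r1b at 0.48, Penk at 0.31 and Drd1 at 0.25. Of 10 septal and basal forebrain genes 3 were tested and 1 called, Zic1, at 25.8, 58.9 and 167 CPM against 28.3, 37.7 and 69.1 CPM (0.87 ± 0.19, SE), and at 0.72 without that mouse (edgeR adjusted p = 0.00903). Zic1 lost its call with batch as covariate (edgeR adjusted p = 0.135) and without the human donor mice (0.316). The summed septal level had a median of 102 CPM in the high and 76.0 CPM in the low mice, which ranged from 60.9 to 124 CPM. Besides replicate 7, human donor replicates 1 and 4 and squirrel monkey donor replicates 1 and 2 lay above that range. The remaining high mice did not. The septal list median was 0.84, and 0.70 without replicate 7. Of 9 olfactory genes 5 were tested and 1 called, Synpr, which was lower and which interneurons of cortex also express. The olfactory list median was -0.42, with 2 of the 5 positive. Its summed level had a median of 208 CPM in the high mice (157 to 375) and 336 CPM in the low mice (186 to 422).

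Interneuron genes had 15 of 18 tested, 1 called higher, Gad1, which makes GABA (0.43 ± 0.10, SE), and a median of 0.09. Glucocorticoid-responsive genes had 16 of 17 tested, 5 called higher and a median of 0.34, led by Sgk1, a kinase also made by oligodendrocytes (1.07 ± 0.25, SE), and Mt1, a metallothionein (0.45 ± 0.11, SE). Mt2, Errfi1 and Klf9 lost their calls without any one of 5, 13 and 14 mice. Without the human donor mice 0 of the list were called. Immediate early genes had 17 of 18 tested and 0 called, and their medians differed in sign between donor groups: -0.10 with human, -0.15 with squirrel monkey and 0.78 with macaque donors, where 16 of 17 were positive. Ribosomal protein genes had 81 of 89 tested, 3 called higher and a median of 0.12, with 78 positive. Over all 12651 genes tested 2.32% were called higher and 6291 were positive. Within donor groups 40 of the 81 were positive with human (median -0.01), 71 with squirrel monkey (0.24) and 59 with macaque donors (0.16). Rps28 (0.29) has near-identical copies, and Rps29 and Rps9 lost their calls without any one of 13 and 17 mice.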

How the data were processed

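The authors deposited 1 table of raw counts per gene with 23958 rows, and per the submitters' processing notes the build was GRCm39. The aligner, counter, annotation and use of strand were not given in the sources used here. Of its columns of counts, 3 matched no sample and were not used. Symbols were matched by gene ID. The 76 rows without one (0.031% of counts) kept their gene ID as name and went through the same filter. Genes were filtered with filterByExpr (minimum count 10, minimum total 15), scaled by TMM (0.956 to 1.04) and tested in edgeR 4.0.16 under R 4.3.3. The common biological coefficient of variation was 0.125. A list score uses log2 CPM with a prior count of 2.

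The mice and all lists were chosen with earlier results of these data known. Named genes were the 15 higher and 15 lower of largest difference past the threshold with at least 5 CPM on average and the same sign in each donor group, up to 6 members of smallest p per list, Mbp, Mog, and the 5 highest and 5 lowest correlations. Further members of the myelin and regulator lists, Drd2, Adora2a, Cd81, Pdgfra, Nfasc and relatives of called genes were chosen after their values were seen. Genes overlapping on the other strand were found in GENCODE M21.

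On simulated counts for the 12651 genes of this comparison the test recovered 32% of genes changed 1.25-fold, 62% at 1.5-fold, 94% at 2-fold and 100% at 4-fold, with 2 false calls. The simulation drew each gene independently and held no batch difference and no sets cut on a measured gene. Its false calls are therefore no estimate for the real data. No 2 libraries held identical counts. Alternatives were other scalings, filters, tests (DESeq2 1.42.0, limma 3.58.1), covariates and choices of mice, and the leaving out of each mouse. Leaving out each donor group, the count of mice whose removal loses a call, and list values without Mbp were added after seeing the data. Some genes and 1 planned choice of mice are not reported here.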

Additional observations from a re-analysis of the deposited data

Results flagged for a closer look

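Within each set of 4 to 8 mice of 1 donor group, a mouse was singled out where its gap to the nearest other mouse was a large share of the range. This happened in 16 of 224 sets of values checked (7.14%). Chance alone singles out about 1 in 20 where sets are independent and not chosen by a measured value. Here the high, middle and low sets were cut by Mbp rank, and measures such as Mbp, Mog and the myelin score move together. The 1 in 20 rate therefore cannot be set against 7.14%, and no excess is read from it. List scores are means of log2 CPM centred per gene.

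Macaque donor replicate 6 stood above the other 3 high mice of its donor group for Mbp (1164 CPM against 497 to 581), Mog (68.6 CPM against 30.5 to 34.9), the structural myelin score (0.975 against -0.105 to 0.0129) and the microglia score (0.232 against -0.0127 to 0.0254). Macaque donor replicate 7 stood above the other 3 low mice for the astrocyte (0.147), microglia (0.240) and mural and meningeal (0.576) scores. Macaque donor replicate 11 was highest of the high mice for the upper-layer score (0.209). Macaque donor replicate 4 was highest of the middle mice for the precursor (0.0309) and claudin (0.269) scores.

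Human donor replicate 7 had the largest library of the high mice (2046030 counts against 1635080 to 1670420) and their lowest claudin score (0.295). Human donor replicate 10 was highest of the low mice for the structural myelin score (-0.433 against -0.779 to -0.747), replicate 11 highest of them for the olfactory score (0.477), and replicate 6 lowest of the middle mice for the endothelial score (-0.236). Squirrel monkey donor replicate 1 was highest of its 8 mice for the neuroblast score (0.616).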

How the results depend on the processing

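The count of 450 called genes moved by more than 1.5 times under these alternatives: 858 with no filter, 203 with batch in place of donor group (162 higher, 41 lower), 203 with all 32 mice split at the donor group's median, 843 for the slope over 32 mice, 88 without the 5 mice of highest Mbp (78 of them shared with the 450), 54 without the human donor mice and 287 without the squirrel monkey donor mice. Leaving out single mice gave 306 to 630. Other scalings, tests and filters gave 441 to 579, the library total as covariate 409, ranks by Mog 305 and the removal of the macaque donor mice 397. Of the 70 oligodendrocyte genes other than Mbp, 50 were called with batch, 29 without the 5 highest mice and 29 without the human donor mice.

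Within donor groups fitted alone, 15 genes were called with macaque and 23 with squirrel monkey donors, against 1 and 5. Leaving out single mice gave 0 to 1 with macaque, 0 to 13 with squirrel monkey and 219 to 439 with human donors. In the 10 middle mice 8 genes, Mbp itself among them, were called with no donor group term, against 0. No scaling moved the median of all genes by over 0.1, and no called gene of those named reversed its direction under any alternative run. The causes were not tested. No paired analysis was possible because the replicate numbers are in accession order and the labels carry none. At the median depth 5 CPM is about 7.67 counts, which limits low genes.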
